A study of Homo sapiens with 6 samples.

Results

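Polyamine synthesis and breakdown was followed through 10 genes in HepG2 cells, an established human hepatocellular carcinoma line, after 24 h with glycine or vehicle. The genes were chosen by name for their place in the pathway (ODC1, AMD1, SRM, SMS, SAT1, SMOX, PAOX, OAZ1, OAZ2 and AZIN1), at a time when the rise of ODC1 and SAT1 in these same libraries was already known. Their differences between glycine and vehicle are therefore given as a description, without p-values. All 10 genes were matched by symbol and Ensembl identifier among the 57500 genes counted, and all 10 were expressed enough to enter the fit of 15492 genes.

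RNA sequencing was performed on 6 libraries of HepG2 cells labelled wild type (WT). In the Vehicle group (3 libraries, replicates 1 to 3) cells received vehicle, and in the glycine group (3 libraries, replicates 1 to 3) the medium held an added 10 mM glycine. Both groups were kept for 24 h in culture medium that already contains some glycine, so the comparison is between more and less glycine and not between its presence and absence. The model is 1 tumour line in culture, and in a bulk measurement a change in the make-up of the culture and a change in the RNA per cell cannot be told apart. The comparison shows which steps of the pathway differed at the transcript level when glycine was raised.

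Library totals ranged from 31795489 to 58815986 counts, and glycine replicate 2 was the deepest. The levels below are CPM values, counts relative to the library total after scaling between samples. All 9 hepatocyte markers (ALB, AFP, APOA1, APOB, TTR, SERPINA1, FGB, TF and HNF4A) were expressed. Their summed level was 29594 to 33653 CPM with vehicle and 25411 to 29108 CPM with glycine, and APOA1 and TTR were called lower. That is 22.2% of the 9, against 6.54% of all tested genes called lower. Of the 9, 8 had a log2 change below 0 with glycine, with a median of -0.26 against 0.00 over all tested genes. The 10 markers of other cell types summed to 587 to 672 CPM with vehicle and 857 to 929 CPM with glycine, of which KRT19, a keratin of bile duct cells, made up nearly everything. Without KRT19 the sums were 34.4 to 37.9 CPM and 28.0 to 29.5 CPM. COL1A1, CD68 and KRT19 were called higher and PDGFRB and VWF lower. These calls are 62.5% of the 8 that could be tested, against 13.3% of all tested genes called in either direction. CD68 shares 85.8% of its exon bases with overlapping annotations, so its count is uncertain. VWF did not exceed 25 counts in a library, and COL1A1 had a mean of 2.2 CPM with vehicle and 4.4 CPM with glycine. KRT7, the other bile duct marker, was not called and did not exceed 21 counts. PTPRC, the pan-leukocyte antigen, and COL1A2 did not exceed 3 and 6 counts in any library. No marker was at 0 in every library. The part of these shifts in the results that follow was not tested.

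Polyamines (putrescine, spermidine and spermine) are small, positively charged amines that bind RNA and DNA and are needed for growth. Putrescine is made from ornithine by ornithine decarboxylase (ODC1), and aminopropyl groups are then added by spermidine synthase (SRM) and spermine synthase (SMS), with decarboxylated S-adenosylmethionine from AMD1 as donor. SAT1 attaches acetyl groups to spermidine and spermine, PAOX oxidises the acetylated products and SMOX oxidises spermine directly. Antizymes (OAZ1, OAZ2) bind ODC1 and direct it to the proteasome, while the antizyme inhibitor AZIN1, a relative of ODC1 without decarboxylase activity, binds antizyme in its place. Much of this control acts on translation and protein turnover, so transcript levels do not give enzyme amounts.

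The sequences of 2 control points are shown, the frameshift site of the antizymes OAZ1 and OAZ2 and the start regions of ODC1 and SAT1. The antizyme transcripts are read through a +1 ribosomal frameshift that polyamines promote, at a stop codon inside the coding region. The 30 bases around it are given from GENCODE release 29 (GRCh38), for OAZ1 at chr19:2271428-2271457 on the plus strand and for OAZ2 at chr15:64691501-64691530 on the minus strand. The capitals mark the last codon in the first frame and the stop codon (TCC and TGA), and the annotated coding sequence skips base 16, the T of the stop codon.
OAZ1: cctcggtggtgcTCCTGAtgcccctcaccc
OAZ2: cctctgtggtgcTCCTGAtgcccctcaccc
Counted from 1 at the 5′ end, and with OAZ1 first, the only difference between these stretches was G5T.

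The 250 bases before the annotated starts of ODC1 and SAT1, the members with the largest changes, are given from RefSeq (GRCh38.p14). They lie at chr2:10448328-10448577 on the minus strand and chrX:23782923-23783172 on the plus strand, and the capitals mark GC boxes, of which the SAT1 stretch has none.
ODC1: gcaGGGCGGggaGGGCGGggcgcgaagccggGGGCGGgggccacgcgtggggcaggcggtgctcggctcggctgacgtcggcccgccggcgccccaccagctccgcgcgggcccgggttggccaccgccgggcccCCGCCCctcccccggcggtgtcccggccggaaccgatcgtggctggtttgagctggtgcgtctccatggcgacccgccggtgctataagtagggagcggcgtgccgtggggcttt
SAT1: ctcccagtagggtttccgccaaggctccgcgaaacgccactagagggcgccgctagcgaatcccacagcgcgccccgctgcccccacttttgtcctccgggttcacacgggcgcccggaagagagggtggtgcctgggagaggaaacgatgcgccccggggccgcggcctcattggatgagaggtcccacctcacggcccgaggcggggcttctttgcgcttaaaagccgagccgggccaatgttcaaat
ODC1 has another annotated start further into the gene, and the 30 bases around the E-box before it, at chr2:10448024-10448053 on the minus strand, read as follows with the E-box in capitals.
ODC1 E-box: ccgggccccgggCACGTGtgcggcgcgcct
Windows from 250 bases before to 50 bases after a start were at hand for 7 members (ODC1, AMD1, SRM, SMS, SAT1, OAZ1 and OAZ2), 10 windows in all, and were searched on both strands. The E-box CACGTG, which MYC and its partner MAX bind, was in 2 windows (1 of ODC1, 1 of SRM), and 7.26% of 35116 windows genome-wide hold it. The GC box GGGCGG was in 9 windows, all but that of SAT1, and 45% of all windows hold it. The AP-1 motif TGANTCA was in 1 window, that of OAZ2 (7.71% of all windows), and TATAAA in 1 window, that of OAZ1, just after its start (11.5% of all windows). The cAMP response element TGACGTCA was in 0 windows (1.85% of all windows). These matches describe letters in short windows and are not evidence of binding.

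Transcripts at the entry and the acetylation step of the pathway, ODC1 and SAT1, were higher with glycine, and the other 8 members did not pass the threshold of an adjusted p of 0.05 over all tested genes (edgeR quasi-likelihood test). Of the 10 members, 2 were called higher and 0 lower, against 13.3% of all tested genes called in either direction, 6.71% called higher and 6.54% called lower. Because the rise of ODC1 and SAT1 was known when the group was put together, nothing is read from this count. Before adjustment, 4 members rose and 1 fell with a p under 0.05 in the edgeR fit. Over all 15492 tested genes, 2214 rose and 2011 fell by that measure. ODC1 and SAT1 are among the 4, so nothing is read from these counts either. By adjusted p, DESeq2 and limma-voom each called 2 members higher and 0 lower, which come from the same values and are no further support. The median log2 change of the members was 0.09, against 0.00 over all tested genes.

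**Figure D1:**
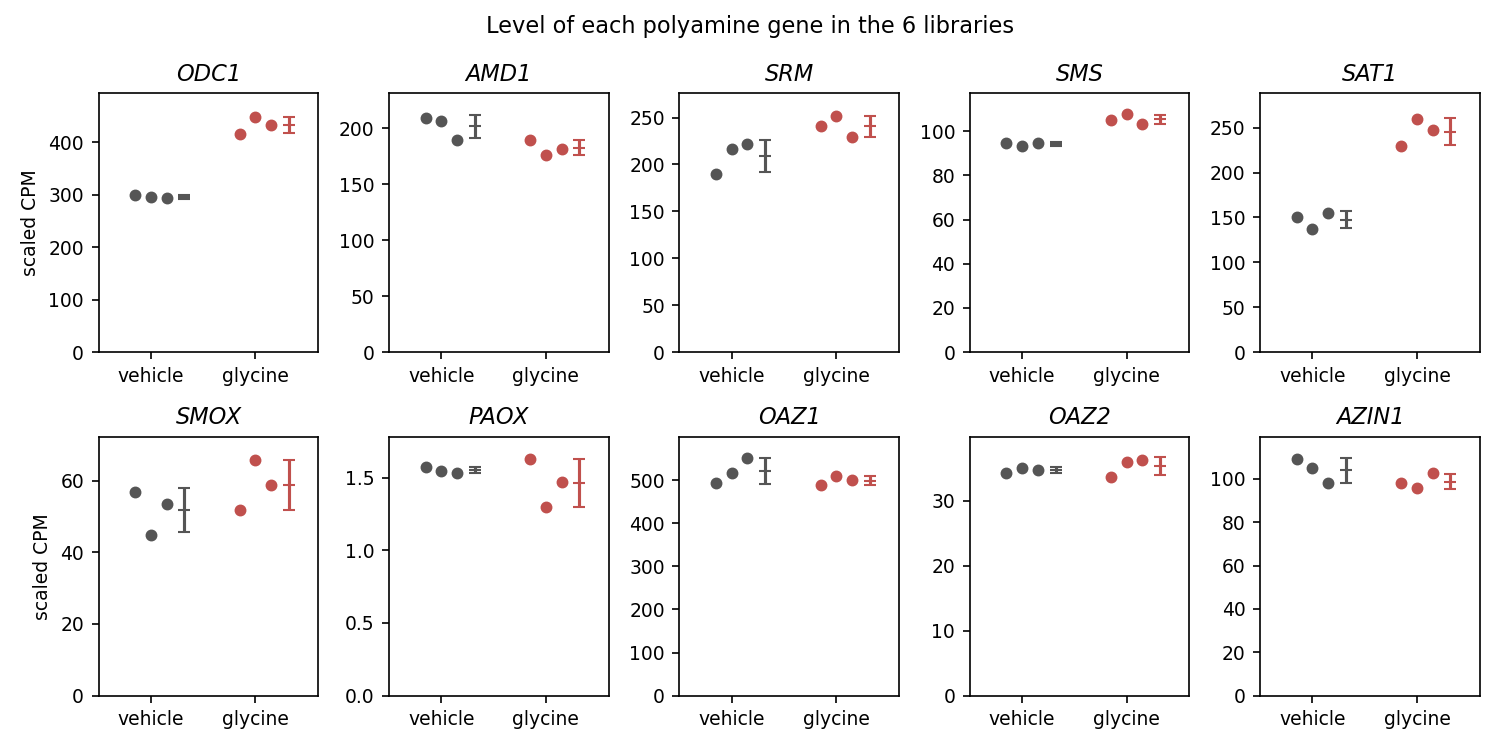
Level of the 10 polyamine genes in each library (scaled CPM, axes from 0), with vehicle libraries in grey and glycine libraries in red. Points are libraries and bars the mean ± SD of 3 libraries. ODC1 and SAT1 sit higher in every glycine library than in any vehicle library, while OAZ1, OAZ2, AZIN1, AMD1, SMOX and PAOX overlap between the groups.

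In the synthesis branch, ODC1 (ENSG00000115758, chromosome 2, 10439968 to 10448504, minus strand, GRCh38) was at 299, 295 and 294 CPM in the vehicle libraries and at 417, 449 and 434 CPM in the glycine libraries. The groups did not overlap, and the vehicle libraries differed by less than 6 CPM. The mean went from 296 ± 2.95 to 433 ± 15.9 CPM (SD, n = 3), a rise of 46.3%, and the fitted log2 change was 0.55 ± 0.063 (s.e.). No other annotated gene covers the exons of ODC1.

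AMD1 (ENSG00000123505, chromosome 6, 110874770 to 110895713), which makes the aminopropyl donor, did not follow ODC1. It was at 209, 206 and 189 CPM with vehicle and at 190, 176 and 182 CPM with glycine. Vehicle replicate 3 lay at the level of glycine replicate 1, so the groups overlapped, and the log2 change of -0.14 ± 0.064 was not called. AMD1 has 4 annotated pseudogenes, and none of them had more than 6 counts in a library.

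SRM (ENSG00000116649, chromosome 1, 11054584 to 11060024), the spermidine synthase, was at 190, 216 and 222 CPM with vehicle and at 241, 252 and 230 CPM with glycine. SMS (ENSG00000102172, chromosome X, 21940573 to 21994835), the spermine synthase, was at 94.8, 93.1 and 94.7 CPM with vehicle and at 105, 108 and 103 CPM with glycine. Every glycine library lay above every vehicle library for both genes, with log2 changes of 0.20 ± 0.072 for SRM and 0.16 ± 0.058 for SMS, and neither was called. Groups without overlap were seen for 4 of the 10 members (ODC1, SAT1, SRM and SMS) and for 31.6% of all tested genes. The 3 pseudogenes of SRM and the 1 of SMS had at most 1 count in a library.

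In the breakdown branch, SAT1 (ENSG00000130066, chromosome X, 23783173 to 23786226, plus strand), the acetyltransferase, changed most of the 10 members. It was at 151, 137 and 155 CPM with vehicle and at 229, 260 and 247 CPM with glycine. The lowest glycine library was well above the highest vehicle library. The mean went from 148 ± 9.41 to 245 ± 15.2 CPM (SD, n = 3), a rise of 66.2%, and the fitted log2 change was 0.73 ± 0.071 (s.e.). No other annotated gene covers its exons.

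The oxidases downstream of SAT1 and beside it did not show a change of that size. SMOX (ENSG00000088826, chromosome 20, 4120980 to 4187747), which oxidises spermine and releases hydrogen peroxide, was at 56.7, 44.8 and 53.6 CPM with vehicle and at 51.9, 65.8 and 58.7 CPM with glycine. The groups overlapped, with a coefficient of variation of 11.9% and 11.8%, among the widest of the members. Its log2 change of 0.19 ± 0.097 was not called. PAOX (ENSG00000148832, chromosome 10, 133379234 to 133391694), which oxidises the acetylated polyamines that SAT1 makes, had the fewest counts of the members, 52 to 76 counts per library. It was at 1.57, 1.55 and 1.53 CPM with vehicle and at 1.63, 1.30 and 1.47 CPM with glycine, and its log2 change of -0.10 ± 0.173 has the largest error of the 10. PAOX is thus the member for which this depth says least. A gene on the same strand covers 6.94% of its exon length.

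**Figure D2:**
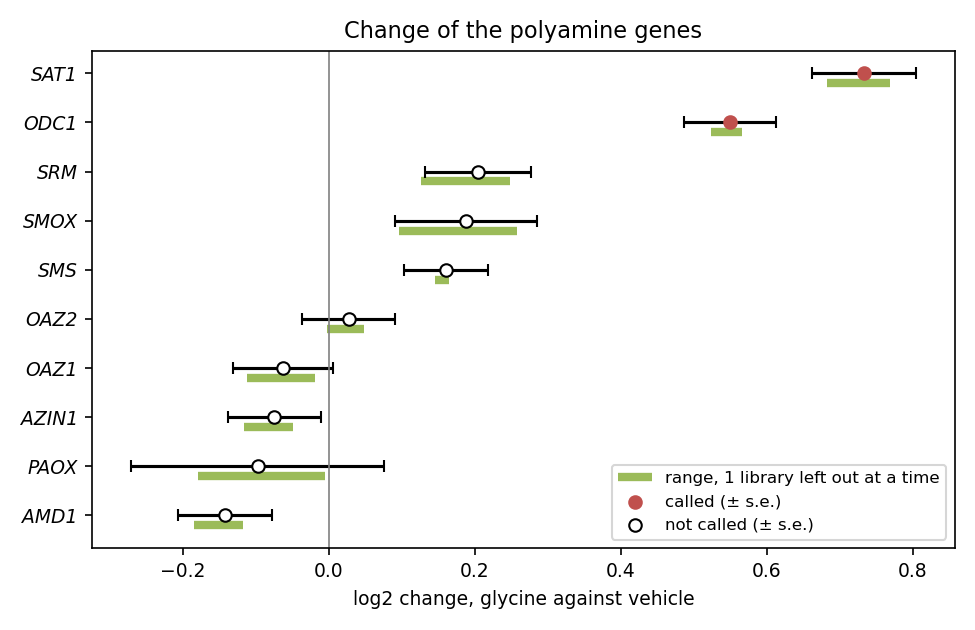
Log2 change of each polyamine gene with glycine against vehicle (edgeR fit, 3 libraries a group). Points are the fitted change with its s.e. (red, called; white, not called) and green bars the range when 1 library is left out at a time, which is 0.68 to 0.77 for SAT1 and 0.52 to 0.57 for ODC1.

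Among the regulators of ODC1 protein, the antizymes and the antizyme inhibitor stayed near their vehicle levels. OAZ1 (ENSG00000104904, chromosome 19, 2269509 to 2273490), the first of the antizymes, was at 494, 517 and 552 CPM with vehicle and at 488, 509 and 499 CPM with glycine. OAZ2 (ENSG00000180304, chromosome 15, 64687573 to 64703281) was at 34.3, 35.2 and 34.8 CPM with vehicle and at 33.8, 36.0 and 36.4 CPM with glycine. For both antizymes the groups overlapped, with log2 changes of -0.06 ± 0.068 for OAZ1 and 0.03 ± 0.064 for OAZ2. Other annotated genes cover 6.87% of the exon length of OAZ1 and 7.22% of that of OAZ2, and no strand setting of the counting was given.

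AZIN1 (ENSG00000155096, chromosome 8, 102826357 to 102893864), the antizyme inhibitor, was at 109, 105 and 98.0 CPM with vehicle and at 97.9, 95.7 and 103 CPM with glycine. The groups overlapped and the log2 change was -0.07 ± 0.064, not called. ODC1 was called higher with no call on either antizyme or on the inhibitor. A gene on the other strand covers 5.04% of the exon length of AZIN1.

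Ratios of counts within a library do not depend on how libraries are scaled, and they were read only as a change between groups, because they also carry the lengths of both genes. The ratio of ODC1 to AZIN1 was 2.74, 2.82 and 3.00 with vehicle and 4.26, 4.69 and 4.23 with glycine, a difference of 0.62 in mean log2 ratio. The ratio of SAT1 to SMOX was 2.66, 3.06 and 2.89 with vehicle and 4.42, 3.95 and 4.21 with glycine, a difference of 0.55. Neither ratio overlapped between the groups. The ratio of SAT1 to ODC1 went from 0.504, 0.464 and 0.528 to 0.550, 0.578 and 0.570, a smaller difference of 0.18, also without overlap. The ratios of OAZ1 to OAZ2 (difference -0.09), AZIN1 to OAZ1 (-0.01), SRM to SMS (0.05) and SMOX to PAOX (0.27) overlapped between the groups. These ratios come from the comparison that was known when the genes were chosen, and no test is attached.

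On a per-length scale (scaled CPM per kilobase of exon), the members spanned a wide range in the vehicle libraries. OAZ1 was highest at 152 ± 8.55, followed by SRM at 110 ± 9.08 and ODC1 at 99.7 ± 0.994 (SD, n = 3). The next per-length levels were 59.1 ± 3.77 for SAT1, 43.6 ± 0.447 for SMS, 28.7 ± 1.49 for AMD1, 17.5 ± 2.09 for SMOX, 16.2 ± 0.889 for AZIN1, 4.53 ± 0.0588 for OAZ2 and 0.680 ± 0.00879 for PAOX. Neighbours in this order were separated in every library except SRM and ODC1, and SMOX and AZIN1, whose ranges overlapped.

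With glycine the head of this order changed. ODC1 moved to 146 ± 5.35 per kilobase, level with OAZ1 at 145 ± 3.10, with overlapping ranges (141 to 151 and 142 to 148). SRM followed at 127 ± 5.88 and SAT1 at 98.2 ± 6.08, and the members from SAT1 downwards kept the order seen with vehicle. The per-length ratio of ODC1 to OAZ1 was 0.659 ± 0.0431 with vehicle and 1.01 ± 0.0154 with glycine (SD, n = 3). The exon length counts every annotated exon of a gene, so the per-length level is understated for genes with long, little-used exons, and the ratio is more secure as a change between groups than as an absolute value.

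**Figure D3:**
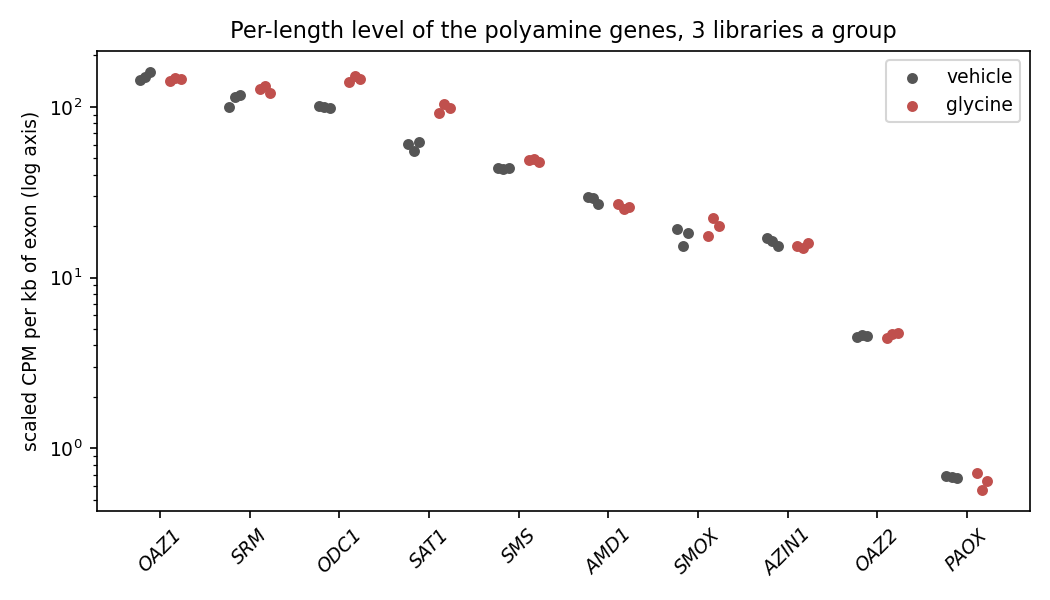
Per-length level of the 10 polyamine genes (scaled CPM per kilobase of exon, log axis), ordered by the vehicle mean, with 3 points per group (grey, vehicle; red, glycine). ODC1 rises from 99.7 to 146, beside OAZ1 at 145, and PAOX lies lowest at 0.680 with vehicle.

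The other genes of the pathway were taken from a list of 44 genes in 6 parts, of which 39 could be tested. Of these, 5 were called lower (12.8%) and 0 higher, against 6.54% of all tested genes called lower, 6.71% called higher and 13.3% called in either direction. The genes are few and the list was fixed with earlier results of these data known, so these shares are given as a description. At an unadjusted p under 0.05 the edgeR fit had 2 genes higher and 7 lower, against 2214 higher and 2011 lower of 15492 tested genes. By adjusted p, DESeq2 called 0 higher and 6 lower and limma-voom 0 higher and 5 lower. The median log2 change of the list was -0.02. The called genes lie in 4 of the 6 parts.

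In the part listed as arginine and ornithine supply (ARG1, ARG2, OAT, AGMAT and AZIN2), 2 of 5 genes were called lower, ARG2 and OAT. The share over all tested genes was 6.54%, and the call on OAT was lost in 8 of 16 alternatives. Not every gene of this part makes arginine or ornithine, so the count is not a measure of supply. ARG2, the mitochondrial arginase that makes ornithine from arginine, was at 30.7, 34.1 and 33.2 CPM with vehicle and at 24.1, 24.7 and 26.0 CPM with glycine. Its log2 change was -0.39 ± 0.0701 (edgeR adjusted p = 0.00265), lower in 3 of 3 glycine libraries. The opposite-strand gene VTI1B covers 37.4% of the exon length of ARG2, so part of its count is uncertain. OAT, ornithine aminotransferase, was at 62.1, 58.2 and 62.7 CPM with vehicle and at 53.4, 51.9 and 51.8 CPM with glycine. The fitted log2 change of OAT was -0.22 ± 0.0619 (edgeR adjusted p = 0.0320), lower in 3 of 3 glycine libraries. The call on OAT was lost without vehicle replicate 1, vehicle replicate 3 or any 1 of the glycine libraries, with an edgeR adjusted p of up to 0.0951, and with the replicate number as a block (0.0652). It was also lost with no expression filter and in a test against a 1.2-fold change, and across all 16 alternatives its adjusted p ran from 0.02 to 1. ARG1, AGMAT and AZIN2 were not called, with log2 changes of -0.51 ± 0.278, 0.09 ± 0.0663 and -0.22 ± 0.200.

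Of 5 other catabolic and antizyme genes, 3 were tested and 1, SAT2, was called lower (33.3%, against 6.54% of all tested genes). The transcript of SAT2 fell while that of its relative SAT1 rose, and the activity of SAT2 on polyamines was not measured. SAT2 is related to SAT1 in sequence and was at 60.4, 61.2 and 68.2 CPM with vehicle and at 46.2, 54.8 and 46.6 CPM with glycine. The groups did not overlap, and the fit gave -0.36 ± 0.0797 on the log2 scale (edgeR adjusted p = 0.00969). ALDH9A1, an aldehyde dehydrogenase that acts on aminoaldehydes, and the testis antizyme OAZ3 were not called. AOC1, the diamine oxidase, and SATL1 had 0 counts in every library. A count of 0 allows up to 3 counts, which is between 0.0510 and 0.0943 CPM per library, for counting error only.

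Among 14 genes linked to polyamine transport, 11 were tested and 1 was called lower (9.09%, against 6.54% of all tested genes). SLC22A3, an organic cation transporter that can carry polyamines, was at 41.4, 41.8 and 39.6 CPM with vehicle and at 28.7, 29.7 and 30.9 CPM with glycine. Its log2 change was -0.46 ± 0.0649 (edgeR adjusted p = 0.000447), lower in 3 of 3 glycine libraries. The lysosomal polyamine exporter ATP13A2 (log2 change -0.02) and its relative ATP13A3 (-0.02) were not called, nor were the cationic amino acid transporters SLC7A1 (0.16) and SLC7A2 (-0.07), which bring in arginine. SLC22A2 had 0 counts in every library, and ATP13A4 and CAV1 did not exceed 4 counts in a library.

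Hypusination, in which spermidine is used by DHPS and DOHH to modify the translation factor EIF5A, had 0 of 5 genes called. At an unadjusted p under 0.05 the edgeR fit had 1 of them higher and 0 lower, against 2214 higher and 2011 lower of 15492 tested genes. The log2 changes were 0.13 for DHPS, 0.15 for DOHH, 0.12 for EIF5A and 0.11 for EIF5A2, with standard errors from 0.0622 to 0.0855. EIF5AL1 (0.48 ± 0.222) is a near-identical copy of EIF5A and its counts are uncertain.

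The methionine cycle and the salvage of methylthioadenosine, the by-product of SRM and SMS, also had 0 of 8 genes called in the edgeR fit. At an unadjusted p under 0.05 it had 0 higher and 1 lower, against 2214 higher and 2011 lower of 15492 tested genes. The 1 lower gene was ADI1 (-0.19 ± 0.0651). MTAP, which cleaves methylthioadenosine, had a log2 change of 0.15 ± 0.0687, and the methionine adenosyltransferases MAT1A and MAT2A had changes of -0.02 and 0.09. DESeq2 called ADI1 lower (adjusted p = 0.0415), as did edgeR without vehicle replicate 1 (0.0416), and across all 16 alternatives its adjusted p ran from 0.0415 to 1.

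MYC, the transcription factor known to drive ODC1 through E-boxes, was not called. It was at 183, 155 and 192 CPM with vehicle and at 158, 179 and 184 CPM with glycine, with overlapping groups and a log2 change of -0.02 ± 0.0856. MXD4, a MAX-binding repressor that competes with MYC, was at 157, 172 and 173 CPM with vehicle and at 110, 119 and 110 CPM with glycine. MXD4 had a fitted log2 change of -0.56 ± 0.0659 (edgeR adjusted p = 9.24e-05), lower in 3 of 3 glycine libraries. It was 1 of 7 genes of this part called (14.3%, against 6.54% of all tested genes called lower). Any link between MXD4 and the rise of ODC1 was not tested. MAX, MNT, MXI1, MXD1 and MXD3 were not called with all 6 libraries, though MXD1 (-0.32 ± 0.14) was called lower without glycine replicate 3 (edgeR adjusted p = 0.0398) and with no expression filter (0.0156), and its adjusted p ran up to 0.942 across the alternatives.

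**Figure D4:**
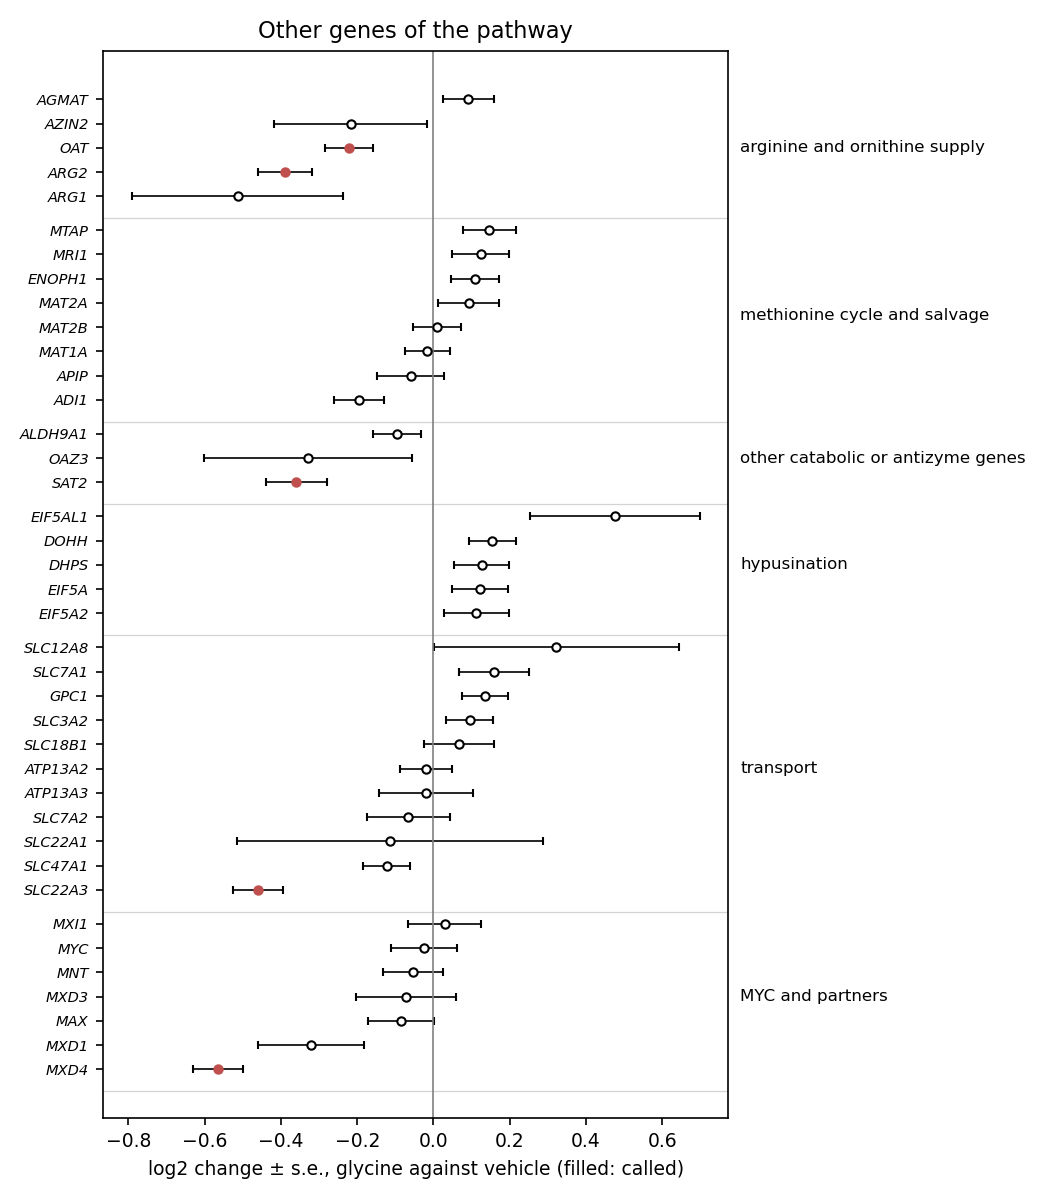
Log2 change ± s.e. with glycine against vehicle for the 39 tested genes of the wider pathway, grouped by part, with called genes filled in red. The 5 called genes (ARG2, OAT, SAT2, SLC22A3 and MXD4) all lie below 0. The 5 hypusination genes lie above 0 without a call, as 7867 of all 15492 tested genes also lie above 0.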

How the data were processed

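RNA from 6 HepG2 libraries, 3 with vehicle and 3 with 10 mM glycine for 24 h, was sequenced. The deposited files hold whole-number read counts per gene, 1 file per library, not normalized. The submitters' processing notes name Trimmomatic 0.36, STAR 2.5.2b, featureCounts of Subread 1.5.2 and GRCh38. The strand setting and the annotation release are not given in the sources used here. Of 57500 genes, 54784 had the same bounds in GENCODE release 29.

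Counts were tested with edgeR 4.0.16 in R 4.3.3 (quasi-likelihood, two-sided, group only), after the edgeR expression filter (minimum count 10, minimum total 15) and scaling by trimmed means of M values. P-values were adjusted by Benjamini-Hochberg over 15492 genes, threshold 0.05. The s.e. is the log2 change divided by the square root of F. The replicates differed by more than sampling noise (chi-square per degree of freedom 6.97 to 26.8). The labels call the replicates independent.

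Alternatives were 3 other scalings, 2 filters, DESeq2 1.42.0, limma-voom (3.58.1), a 1.2-fold null, thinning to the smallest library, a replicate block and each library left out. The script was tested on simulated data. The members and lists were chosen with earlier results of these data known. Named are all members and, of the pathway list, called genes (up to 5 per direction and part, by smallest p) and genes too low to test; other genes named were chosen after their values were seen.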

Additional observations from a re-analysis of the deposited data

How the results depend on the processing

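ODC1 and SAT1 were called higher under all 16 alternatives and the other 8 members under none, in 160 values with 0 lost, 0 gained and 0 reversed calls. The alternatives reuse the same libraries, for genes chosen with that rise known, and are no further support. The log2 change ran from 0.52 to 0.57 for ODC1 and from 0.68 to 0.77 for SAT1. That of OAZ2, uncalled, crossed 0 with a library left out (-0.00249 to 0.0476). For the pathway list, 602 of 616 values kept their side of the threshold, 10 calls were lost (8 of them OAT) and 4 gained, with 0 reversed. Against a 1.2-fold change, 2 genes of the list were called lower, because this test asks for a larger change, and ARG2 (adjusted p = 0.218) and SAT2 (0.445) lost their calls. Their adjusted p ran from 0.000111 to 0.218 and from 0.000152 to 0.445 over all alternatives.

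Over all genes, 1040 were called higher and 1013 lower. The test against a 1.2-fold change called 235 and 246. With 1 library left out, 587 to 926 were called higher and 655 to 1010 lower, with fewer samples. Total count scaling put 55.9% of calls higher, against 50.7%.

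The replicate numbers did not pair the libraries. After removing group means, vehicle and glycine libraries of equal number had correlations of -0.058, -0.027 and -0.003. No library correlated best with its own number. The highest values were 0.214 for vehicle 1 with glycine 3, 0.214 for vehicle 2 with glycine 1 and 0.180 for vehicle 3 with glycine 2. Every other pair was negative. Whether the libraries were paired under other numbers was not tested. With the replicate block, 866 genes were called higher and 918 lower, 2 members higher and 0 lower, and 4 genes of the list lower, and OAT was the call lost there.

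Depth limits PAOX, at 52 to 76 counts per library, and the genes at or near 0 counts. The floors given for counts of 0 cover counting error only.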

Other observations

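Ratios of counts within a library were also taken for 3 pairs chosen after their values were seen, so they are values without a test. The ratio of SAT1 to SAT2, the pair of related acetyltransferase genes, was 2.5, 2.24 and 2.27 with vehicle and 4.96, 4.74 and 5.30 with glycine, a difference of 1.10 in mean log2 ratio. The ratio of ODC1 to ARG2, the genes that consume and produce ornithine, was 9.75, 8.66 and 8.85 with vehicle and 17.3, 18.2 and 16.7 with glycine, a difference of 0.94. The ratio of ODC1 to OAZ1 was 0.606, 0.571 and 0.532 with vehicle and 0.855, 0.882 and 0.869 with glycine, a difference of 0.61. None of the 3 ratios overlapped between the groups.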
